A study of Strongylocentrotus purpuratus with 4 samples.

Results

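Gut cells of the purple sea urchin Strongylocentrotus purpuratus gastrula were examined in 2 droplet libraries of embryos injected with morpholino oligonucleotides (MO). A gut cell was a cell with 400 to 2500 detected genes and at least 3 unique molecular identifiers (UMIs, each counting 1 captured transcript) of Endo16. It also had to hold fewer than 5 UMIs of the skeletogenic genes SM37, SM50, PM27 and msp130 together, and less than 0.3% of its UMIs from the pigment genes LOC588806 (pks1), LOC592500 (sult1c2), LOC588371 (fmo5-1) and gcm. This rule took 340 of the 3862 MO cells within the gene limits, or 67 of 539 in the gcm MO library and 273 of 3323 in the control MO library, out of 17911 cells in the 4 libraries of the series. Because measured Endo16 chose the cells, every difference between gut cells and other cells below is a description of the chosen cells and carries no test.

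The study asked what becomes of pigment cells when gcm, a transcription factor of pigment cell specification, is knocked down, and the same libraries hold the gut. The gcm MO group came from embryos injected with a translation-blocking MO against gcm at 0.5 mM and collected at 48 h post fertilization (hpf). The control MO group was injected with an MO designed for foxy3 of the sea star Patiria miniata, unrelated to this species, and was collected at the same time. Both groups were wild-type animals apart from the MO, were made of pooled embryos picked for their phenotype, were dissociated whole, and shared a sequencing lane. The study gives the gcm morphant phenotype as a lack of pigmentation and a straight gut. The gcm MO embryos were thus picked partly for how their gut looked. The study describes gcm morphant cells as sensitive to dissociation. A library of uninjected 48 hpf embryos, enriched for ectoderm and sequenced in a lane of its own, is set beside them. Each condition has 1 library, so no value below has a replicate check and no p-value is given.

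In this embryo the endoderm invaginates to form the archenteron, which is then divided into foregut, midgut and hindgut. Endo16 encodes a secreted calcium-binding glycoprotein of the gut surface whose expression becomes restricted to the midgut. The transcription factors blimp1/krox, GATAe and FoxA belong to the endoderm gene regulatory network, in which GATAe keeps endodermal genes active and FoxA acts in the future foregut and around the blastopore. Arylsulfatase (ARS), SPEC1 and the metallothionein MTa are known from the ectoderm, and spicule matrix genes such as SM30A from the skeletogenic mesenchyme.

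The gcm MO library held 643 cells and 2298196 UMIs, and the control MO library 3402 cells and 9454334 UMIs. The median gut cell held 3866 UMIs and 1536 genes in gcm MO, and 3676 UMIs and 1432 genes in control MO. Other kept cells had medians of 3816.5 UMIs in gcm MO and 2625.5 UMIs in control MO. In gcm MO 56 cells fell under 400 genes and 48 above 2500, against 69 and 10 cells in control MO. The MO libraries shared 1 cell barcode, which marked a gut cell in control MO. Levels are given as CPM, meaning the summed UMIs that a gene had in a group of cells per 1000000 UMIs of that group, and the 95% intervals are exact intervals that cover counting error only.

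Gut cells made up a larger share of the gcm MO cells than of the control MO cells, and within the gene limits the difference was larger among cells with few Endo16 UMIs. The share was 12.4% in gcm MO (Clopper-Pearson interval 9.76 to 15.5%) and 8.22% in control MO (7.30 to 9.2%), a ratio of 1.51 (1.14 to 1.98). Cells with 3 to 9 Endo16 UMIs numbered 26 in gcm MO (4.82% of kept cells) and 61 in control MO (1.84%), a ratio of 2.63 (1.59 to 4.22). For cells with 10 or more Endo16 UMIs the shares were closer, at 7.61% in gcm MO and 6.38% in control MO, with a ratio of 1.19 whose interval of 0.832 to 1.67 includes 1. After each cell was thinned to 1000 UMIs and the rule applied again, the shares were 10.8% in gcm MO and 6.62% in control MO, or 43 of 399 and 211 of 3189 cells, a ratio of 1.63 (1.15 to 2.27). With no upper gene limit the ratio was 1.79 (1.39 to 2.28), since 3.27% of all gcm MO cells and 0.206% of all control MO cells held over 2500 genes and at least 3 Endo16 UMIs. The gut cells with 3 to 9 Endo16 UMIs were shallower in gcm MO, with a median of 1344.5 UMIs, against 2799 UMIs in control MO. A share also depends on the other cell types kept. By the limits of the rule these included 2 skeletogenic and 7 pigment cells in gcm MO, and 53 and 205 in control MO. The part of these cell types, of depth, dissociation and the picking of embryos in the share was not tested.

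The cells just inside the threshold differed between the libraries. In gcm MO, the 8 cells with 2 Endo16 UMIs, just outside, had ARS at 1282 CPM, and the 13 cells with 3 or 4, just inside, had ARS at 10316 CPM. In control MO, ARS stood at 5808 CPM in the 37 cells just outside and at 3244 CPM in the 21 cells just inside. The pooled ARS level was therefore higher inside than outside in gcm MO and lower inside than outside in control MO. In gcm MO a few cells carried it, since an ARS UMI was found in 5 of the 8 cells outside and in 4 of the 13 inside. For blimp1/krox gcm MO had 5 UMIs in 1 cell just outside and 3 UMIs in 2 cells just inside, too few to give a direction, and control MO had 173 CPM outside and 549 CPM inside. In the cells with 10 to 49 Endo16 UMIs, ARS was at 236 CPM in gcm MO and at 698 CPM in control MO, and blimp1/krox at 1064 and 800 CPM. Among cells with no Endo16 UMI, ARS was at 9198 CPM in gcm MO and 11152 CPM in control MO.

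**Figure D1:**
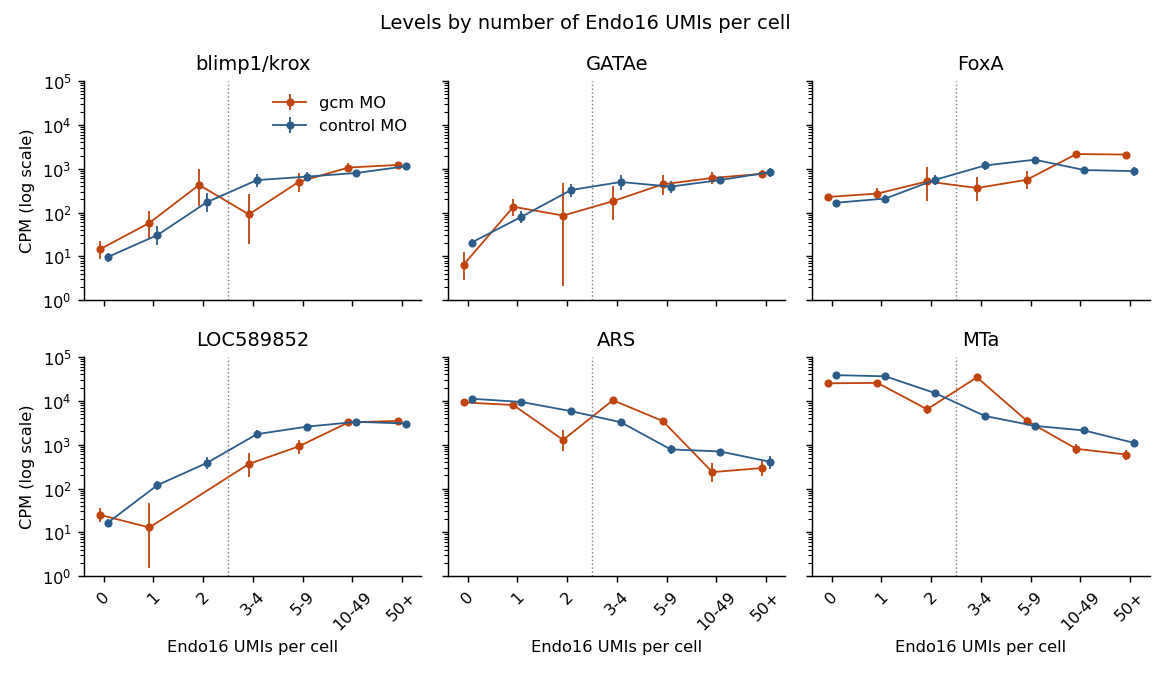
Levels of 6 genes in cells grouped by their number of Endo16 UMIs (horizontal axis), as CPM on a log scale with 95% intervals, for gcm MO (orange) and control MO (blue), with the threshold of 3 UMIs dotted and classes at 0 CPM left blank. In gcm MO the pooled ARS level is 10316 CPM just inside the threshold, where 4 of 13 cells hold ARS and 3 cells hold 1087 of the 1135 MTa UMIs, and 236 CPM at 10 to 49 Endo16 UMIs.

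The gut label was checked against regulators that the rule did not use. All 3 of blimp1/krox, GATAe and FoxA were at 4-fold or more in gut cells in each MO library, where 2.53% of 4458 genes in gcm MO and 3.23% of 9068 genes in control MO reached 4-fold. The zinc finger gene blimp1/krox was at 920 CPM in gut cells and 23.5 CPM in other cells of gcm MO, a ratio of 39.2 (27.6 to 57.1). In control MO it was at 799 CPM in gut cells and 13.4 CPM in other cells, a ratio of 59.5 (48.7 to 73.1). GATAe had ratios of 29.3 (19.9 to 44.4) in gcm MO and 18.9 (16.2 to 22.0) in control MO. FoxA had the smallest ratios of the 3, at 7.23 (6.26 to 8.35) in gcm MO and 6.16 (5.68 to 6.67) in control MO, and other cells also held FoxA, at 231 CPM in gcm MO and 165 CPM in control MO. Endo16 itself, which defined the cells, was at 8778 CPM in gut cells and 39.3 CPM in other cells of gcm MO, and at 5739 and 44.8 CPM in control MO. Among the cells that the skeletogenic and pigment limits describe in control MO, 3 of 53 skeletogenic and 21 of 205 pigment cells held an Endo16 UMI, and 1 and 4 of them reached 3 UMIs.

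Single gut cells differed in which regulators they held. A UMI of blimp1/krox was found in 36 of 67 gut cells of gcm MO (53.7%) and 219 of 273 of control MO (80.2%). GATAe was found in 58.2% of gcm MO and 67.8% of control MO gut cells, and FoxA in 73.1% and 85.7%. In pigment and skeletogenic cells, taken as types that should lack them, blimp1/krox was found in 3 of 258, GATAe in 12 and FoxA in 10 cells of control MO, and each in 1 of 9 cells of gcm MO. In control MO the shares of gut cells lay far above this background, and in gcm MO 9 such cells give it little precision. At 1000 UMIs a cell, in 56 gcm MO and 269 control MO gut cells, the shares were 41.1% and 47.6% for blimp1/krox, 37.5% and 34.6% for GATAe, and 71.4% and 55.0% for FoxA. At equal depth the gcm MO share for FoxA was thus the higher of the pair, with intervals of 57.8 to 82.7% in gcm MO and 48.9 to 61.1% in control MO. All 3 regulators were seen together in 26 gcm MO gut cells (38.8%) and 153 control MO gut cells (56.0%). At 1000 UMIs a cell this order turned round, with 11 of 56 cells in gcm MO (19.6%, interval 10.2 to 32.4%) and 28 of 269 in control MO (10.4%, interval 7.03 to 14.7%).

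Gut cells with none of the 3 regulators carried ectodermal transcripts, more so in gcm MO. They numbered 8 of 67 in gcm MO (11.9%) and 11 of 273 in control MO (4.03%), with medians of 4 and 6 Endo16 UMIs. In the 8 gcm MO cells ARS was at 12614 CPM and MTa at 39796 CPM, and in the 11 control MO cells ARS was at 4927 CPM and MTa at 6499 CPM. Of the 1079 MTa UMIs of the 8 gcm MO cells, 698 lay in 1 cell and 287 in another, so the pooled level rests on these. Both levels in gcm MO lay above those of its cells without Endo16, where ARS was at 9198 CPM and MTa at 25055 CPM. Gut cells with all 3 regulators had ARS at 324 CPM in gcm MO and 714 CPM in control MO. Among gut cells with 10 or more Endo16 UMIs, 0 of 41 in gcm MO (exact interval up to 8.60%) and 3 of 212 in control MO lacked all 3.

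Among gut cells with 10 or more Endo16 UMIs, those with and without a blimp1/krox UMI had different levels of FoxA, GATAe and several abundant gut transcripts, in the same direction in both libraries. In gcm MO, 28 cells had blimp1/krox and 13 did not, with medians of 5360 and 3424 UMIs. In control MO, 185 had it and 27 did not, with medians of 4143 and 2955 UMIs. Endo16 was close in the cells with and without blimp1/krox, at 11696 and 10359 CPM in gcm MO and at 6519 and 6006 CPM in control MO. FoxA was lower where blimp1/krox was found, at 1703 CPM with and 3338 CPM without it in gcm MO, and at 809 CPM with and 1994 CPM without it in control MO. GATAe was higher where it was found, at 825 and 345 CPM in gcm MO, and at 640 and 45.6 CPM in control MO. The abundant gut transcript LOC591984 was at 13596 CPM with and 3273 CPM without blimp1/krox in gcm MO, and at 18783 and 3863 CPM in control MO. LOC585065 followed it, at 3959 and 1443 CPM in gcm MO and at 5034 and 957 CPM in control MO, while LOC575553 was at 2687 and 2778 CPM in gcm MO and at 1868 and 2279 CPM in control MO. The ribosomal protein transcript rps15a was even, at 5859 and 6375 CPM in gcm MO and at 6670 and 6701 CPM in control MO. FoxA without blimp1/krox was found in 12 of 41 such cells in gcm MO (29.3%, interval 16.1 to 45.5%) and in 24 of 212 in control MO (11.3%, interval 7.39 to 16.4%). The cells without blimp1/krox were shallower in both libraries, and the part of depth in these differences was not tested.

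Most transcripts that stood highest in gut cells carry only a LOC identifier, and 6 of the 293 genes at 4-fold or more in control MO have a symbol. The 15 highest ratios in control MO ran up to 245 for LOC582741, which held 94 UMIs in gut cells and 3 in other cells. LOC585996 had a ratio of 191, LOC753750 of 186 and LOC756072 of 183 in control MO. In gcm MO the ratios of these genes rested on few UMIs. LOC756072 had 57 UMIs in gut and 4 in other cells (ratio 91.5, interval 33.8 to 347), and LOC753750 had 22 and 5. LOC593118, among the 15, was among the best counted, at 566 CPM in gut and 4.44 CPM in other cells of gcm MO and at 917 and 6.54 CPM in control MO. The other members of the 15 were LOC583122, LOC754762, LOC100890938, LOC575621, LOC575370, LOC100890455, LOC582692, LOC585539, LOC586744 and Endo16. All 15 were above 1 in gcm MO too, with ratios from 8.56 for LOC585996 to 223 for Endo16 when a group under 3 UMIs was set to 3.

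The 4-fold lists of both libraries, which share no cells, overlapped in large part. Of 4456 genes tested in both, 113 were at 4-fold or more in gcm MO and 104 in control MO, and 77 were in both lists, or 68.1% of the gcm MO list and 74.0% of the control MO list. At 0.25-fold or less stood 515 genes in gcm MO (11.6% of those tested there), and 1328 in control MO (14.6%). Of the genes tested in both, 515 in gcm MO and 910 in control MO were that low and 472 were low in both, or 91.7% of the gcm MO list and 51.9% of the control MO list. The median ratio over all genes was 1.02 in gcm MO and 1.01 in control MO.

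The abundant gut transcript LOC591984 varied widely between single gut cells. The 12 most abundant genes at 4-fold or more in control MO, picked after their values were seen, held 3.74% of gut UMIs in gcm MO and 5.11% in control MO, against 0.146% and 0.178% in other cells. They include Endo16, which defined the cells and held 2156 of their 9177 gut UMIs in gcm MO and 6061 of 53973 in control MO. Part of the difference from other cells thus follows from the rule. LOC591984 led the 12 genes, at 9002 CPM in gut cells of gcm MO and 16608 CPM in those of control MO. Across single gut cells its level had a median of 2406 CPM (0 to 32997) in gcm MO and 17382 CPM (0 to 36914) in control MO. It was found in 52 of 67 and 258 of 273 gut cells, which left 15 gut cells of each library without it. LOC753678 was at 3094 CPM in gcm MO and 5538 CPM in control MO, LOC575684 at 2984 and 5469 CPM, and LOC575434 at 1091 and 2284 CPM. LOC589852 and LOC575553 were closer, at 2626 CPM in gcm MO and 3124 CPM in control MO and at 2129 and 1791 CPM. In gut cells with 10 or more Endo16 UMIs the gcm MO to control MO ratio was 0.631 for LOC591984 (0.601 to 0.661), 0.576 for LOC575434 (0.503 to 0.657) and 1.03 for LOC589852 (0.938 to 1.12).

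Several other named genes had gut ratios above 1, some of them on few UMIs. The ParaHox gene lox, known from the border of midgut and hindgut, had 8 UMIs in gut and 0 in other cells of gcm MO, at least 17.1-fold higher with the other cells at the 3-UMI floor. In control MO lox had 15 and 3 UMIs, a ratio of 39.1 (11.1 to 211). Hedgehog (hh), a ligand secreted by the endoderm, had 10 and 3 UMIs in gcm MO (ratio 21.4, interval 5.51 to 121) and 25 and 19 in control MO (10.3, interval 5.44 to 19.8). At these low counts both genes were detected in few gut cells, which does not show how many cells express them. A lox UMI was found in 7.46% of gut cells in gcm MO and 5.13% in control MO, and an hh UMI in 7 and 25 gut cells. The Hox gene Hbox7 had ratios of 4.35 in gcm MO and 2.84 in control MO, and eve, a homeobox gene of the blastopore region, of 0.584 and 0.967. The cytoplasmic actin CyI was at 3575 CPM in gut and 911 CPM in other cells of gcm MO (3.92), and at 3793 and 1374 CPM in control MO (2.76). Echs1, a mitochondrial enzyme of fatty acid oxidation, had ratios of 2.61 in gcm MO and 5.01 in control MO, and the cyclic GMP phosphodiesterase pde5 of 3.95 and 10.6.

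Other endoderm network and signalling genes were below 4-fold where they passed 50 UMIs. Of the 5 network genes SoxB1, SoxB2, otx, Elk and Tcf/Lef, 0 were at 4-fold or more in either library, where 2.53% of all genes in gcm MO and 3.23% in control MO were. SoxB1, a transcription factor that is kept out of the endoderm, was at 0.173 in gcm MO and 0.172 in control MO. Tcf/Lef, the nuclear partner of beta-catenin in Wnt signalling, had ratios of 2.00 (1.19 to 3.22) in gcm MO and 1.41 (1.08 to 1.82) in control MO. The FGF receptor gene FGFR was at 643 CPM in gut and 358 CPM in other cells of gcm MO (1.80) and at 509 and 331 CPM in control MO (1.54), while its ligand gene FGF had ratios of 0.812 and 0.927. Of the 7 signalling genes, 3 in gcm MO and 5 in control MO passed 50 UMIs, of which 0 reached 4-fold and 0 and 2 were at 0.25-fold or less. Those low in control MO were BMP2/4, with 2 UMIs in gut and 372 in other cells, and wnt1, with 2 and 119.

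The 3 ribosomal protein genes looked at were higher in gut cells, and cell cycle genes were higher too, with smaller median ratios. The ribosomal protein genes rpl36, rps14 and rps15a had gut ratios of 1.58 to 1.65 in gcm MO and 1.41 to 1.54 in control MO. Their summed level was 12047 CPM in gut and 7493 CPM in other cells of gcm MO, and 13856 and 9578 CPM in control MO. The 24 cell cycle genes had a median ratio of 1.41 over the 23 that passed in gcm MO and 1.27 over all 24 in control MO, with 0 at 4-fold or more in either. Summed, they were at 4869 CPM in gut and 3335 CPM in other cells of gcm MO, and at 4499 and 3642 CPM in control MO. The heat shock gene hsp110 had ratios of 1.52 in gcm MO and 1.73 in control MO. The yolk protein gene myp had 0 UMIs in gut and in other cells of both libraries.

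Aboral ectoderm genes and MTa were low in gut cells, by less in gcm MO. ARS was at 2064 CPM in gut and 8904 CPM in other cells of gcm MO (0.232, interval 0.212 to 0.253), and at 823 and 10230 CPM in control MO (0.0804, interval 0.0752 to 0.0860). MTa had ratios of 0.227 in gcm MO and 0.0622 in control MO, and SPEC1 of 0.225 and 0.105. The summed level of the 5 aboral ectoderm genes, all of which were detected in gut cells, was 3656 CPM in gcm MO and 1634 CPM in control MO gut cells. In gut cells with 10 or more Endo16 UMIs it was 655 CPM in gcm MO and 1279 CPM in control MO, so its order turned round. Of these 5 genes, 3 were at 0.25-fold or less in gcm MO, where 11.6% of all genes were, and 4 in control MO, where 14.6% were.

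Markers of the ciliary band, skeleton and pigment cells were low as well. Both ciliary band transcription factor genes, hnf6 and FoxG, were at 0.0719 and 0.131 in gcm MO and at 0.105 and 0.0803 in control MO. The spicule matrix gene SM30A, which the rule did not use, was at 0.0853 in gcm MO and 0.0380 in control MO. The pigment genes LOC588806 and LOC592500 are low by the rule, and in control MO both were among the 8 lowest ratios, with LOC764367, LOC581172, LOC586858, LOC592338, LOC585965 and LOC579403. The transcript of gcm had 0 UMIs in gut cells of gcm MO and 10 in 2 gut cells of control MO, and in other cells it was at 6.34 and 29.9 CPM. Since the MO blocks translation, transcript counts do not check the knockdown.

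**Figure D2:**
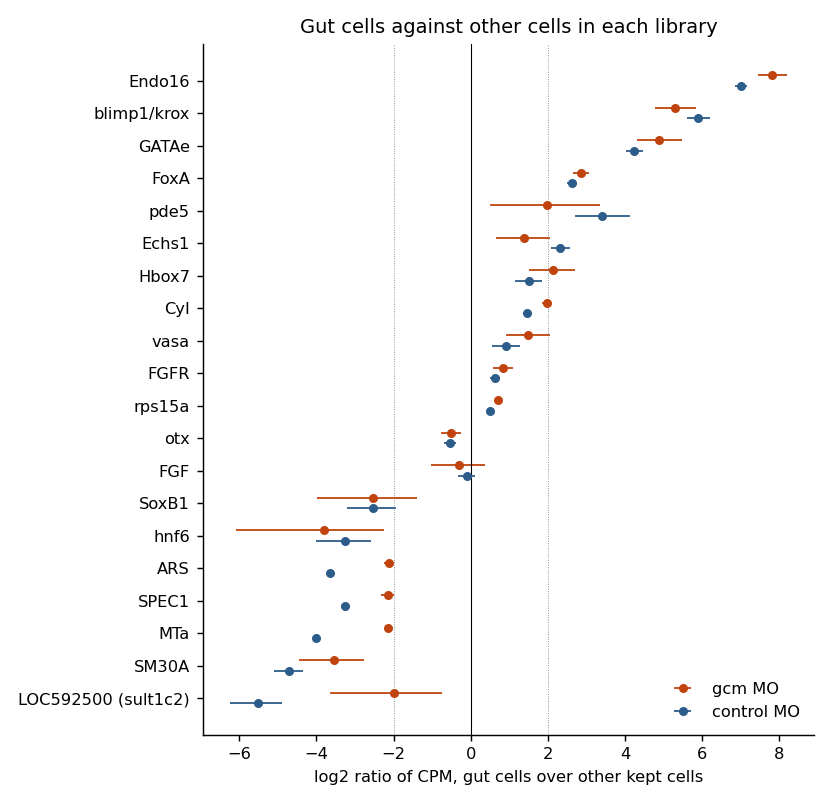
The log2 ratio of CPM in gut cells over other kept cells (horizontal axis) for 20 genes (rows), with 95% counting intervals, for gcm MO (orange) and control MO (blue), and dotted lines at 4-fold and 0.25-fold. The 3 regulators lie beyond 4-fold in both libraries, and ARS, SPEC1 and MTa are less depleted in gcm MO, where ARS stands at 0.232, than in control MO, where it stands at 0.0804.

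Within gut cells, gcm MO and control MO differed by 2-fold or more in a limited set of genes. Of 1817 genes with at least 100 UMIs in the gut cells of both libraries together, 111 were at 2-fold or more (6.11%) and 104 at 0.5-fold or less (5.72%) in gcm MO over control MO. The median ratio was 1.04. In the other cells of the same libraries, 8.03% of 6962 genes were at 2-fold or more and 7.37% at 0.5-fold or less. The same minimum of 100 UMIs passed more genes in other cells, so these shares cover different gene sets and do not rank gut against other cells. The other cells held 2 skeletogenic and 7 pigment cells in gcm MO and 53 and 205 in control MO. The part of this difference in cell types in the ratios of other cells was not tested. In the gut cells with 10 or more Endo16 UMIs alone, 4.7% of 1488 genes were at 2-fold or more and 6.12% at 0.5-fold or less. Of the 111 genes, 52 were also at 2-fold or more in those cells and 18 were at 0.5-fold or less. Of the 104 genes, 69 were at 0.5-fold or less in those cells and all 104 were below 1. Groups under 3 UMIs in those cells kept their counts when the 111 and 104 genes were sorted this way.

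FoxA was the regulator with the largest difference. It was at 1673 CPM in gcm MO and 1015 CPM in control MO gut cells, a ratio of 1.65 (1.47 to 1.85), and in gut cells with 10 or more Endo16 UMIs at 2128 and 927 CPM, a ratio of 2.30 (2.03 to 2.60). In other cells the ratio of FoxA was 1.40. The single-cell levels of FoxA overlapped widely, with a median of 1250 CPM (0 to 5381) in gcm MO and 820 CPM (0 to 5013) in control MO gut cells. For blimp1/krox the ratio was 1.15 (0.990 to 1.34) and for GATAe 1.07 (0.886 to 1.28), and both intervals include 1. Endo16 was higher in gcm MO gut cells at 1.53 (1.46 to 1.61), a value the rule bears on, and Endo16 per cell ran from 3 to 130 UMIs with a median of 16 in gcm MO and from 3 to 107 with a median of 19 in control MO.

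Among the other gut and endoderm genes, some were higher and some lower in gcm MO gut cells. Hbox7 was at 171 CPM in gcm MO and 86.2 CPM in control MO, a ratio of 1.98 (1.34 to 2.89), but 25 of its 42 gcm MO UMIs lay in 3 cells. The homeobox gene otx was at 550 CPM in gcm MO and 380 CPM in control MO (1.45, interval 1.18 to 1.76), with a ratio of 1.42 (1.33 to 1.51) in other cells. FGF was lower, at 85.5 CPM in gcm MO and 199 CPM in control MO (0.430, interval 0.261 to 0.674), with 0.491 in other cells. FGFR was at 643 and 509 CPM (1.26, interval 1.05 to 1.51). Echs1 was at 106 CPM in gcm MO and 201 CPM in control MO (0.527, interval 0.337 to 0.795), with a ratio of 1.01 in other cells, and the ratio of both ratios was not tested across replicates. Of the 17 cell cycle genes that passed 100 UMIs, 0 were past 2-fold in either direction, with a median of 1.05.

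Genes known from the ectoderm were among the higher ones in gcm MO. For MTa, ARS, EGF2 and egf1 the order turned round without the cells poor in Endo16, and for the aboral ectoderm gene NK2.2 it did not. MTa was at 5606 CPM in gcm MO and 2217 CPM in control MO gut cells (2.53, interval 2.37 to 2.70). Of its 1377 UMIs in gcm MO, 1087 lay in 3 cells, which held 3 or 4 Endo16 UMIs each, and in gut cells with 10 or more Endo16 UMIs its ratio was 0.341. ARS had a ratio of 2.51 in all gut cells and 0.402 in those with 10 or more Endo16 UMIs, and 376 of its 507 gcm MO UMIs lay in 3 cells. The EGF repeat genes EGF2 and egf1 had ratios of 2.57 and 3.54 in all gut cells, against 0.733 and 0.947 in those with 10 or more. Most gcm MO gut UMIs of MTa and ARS thus lay in a handful of cells near the threshold. The germline helicase gene vasa did not turn round, at 159 CPM in gcm MO and 74.8 CPM in control MO (2.12, interval 1.41 to 3.15) and a ratio of 2.30 with 10 or more Endo16 UMIs. The same held for the poly(A)-binding protein gene pabp, at 240 and 75.8 CPM (3.17, interval 2.23 to 4.49) and 3.64. It also held for NK2.2, a homeobox gene among the aboral ectoderm genes, at 187 and 79.5 CPM (2.35, interval 1.61 to 3.41) and 2.30 (1.38 to 3.72). In other cells pabp also stood at 2.86, vasa at 1.42 and NK2.2 at 1.49. EGF2 and egf1 were higher in gcm MO there too, at 2.00 (1.97 to 2.04) and 2.24 (2.17 to 2.31). MTa and ARS were lower there, at 0.692 and 0.870.

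The 10 highest ratios were LOC589794, LOC575628, COLP3alpha, LOC585042, LOC585870, LOC755214, LOC100888594, ebr1, LOC585338 and LOC580060. LOC589794 led with 11.3 (7.26 to 17.9), but its 76 gcm MO UMIs lay in 2 cells, with 60 and 16. The collagen gene COLP3alpha was at 460 CPM in gcm MO and 70.1 CPM in control MO (6.57, interval 4.86 to 8.92), with 60, 20 and 10 of its 113 gcm MO UMIs in 3 cells that held 7, 6 and 5 Endo16 UMIs. The cell with 60 COLP3alpha UMIs also held 60 UMIs of LOC589794 and 47 of LOC575628, among 1551 in all. These 3 top genes thus rested largely on the same cell. LOC585338 was found in 44 of the 67 gcm MO gut cells and LOC580060 in 18, 3 of which held 48 of its 92 UMIs, with ratios of 4.79 and 4.71 in all gut cells and of 2.96 and 3.48 in those with 10 or more Endo16 UMIs.

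**Figure D3:**
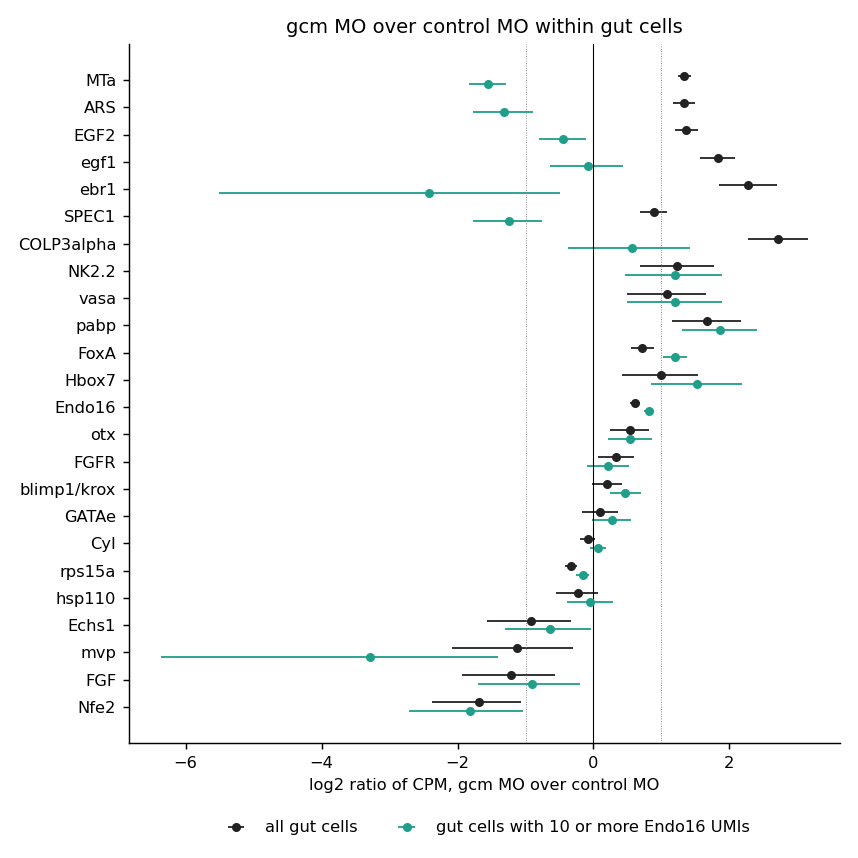
The log2 ratio of gcm MO over control MO (horizontal axis) in all gut cells (black) and in gut cells with 10 or more Endo16 UMIs (green) for 24 genes (rows), with 95% counting intervals and dotted lines at 2-fold and 0.5-fold. MTa and ARS lie at 2.53 and 2.51 in all gut cells and at 0.341 and 0.402 in the cells with 10 or more Endo16 UMIs, while FoxA, vasa, pabp and Nfe2 keep their side.

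The lowest ratios were LOC763417, LOC584671, LOC588827, LOC753986, LOC581034, LOC575151, LOC580476, LOC752244, LOC585996 and LOC100893731. LOC763417 had 1 UMI in gcm MO gut cells and 186 in those of control MO, and LOC584671 had 2 and 143. LOC580476 was at 48.9 CPM in gcm MO and 389 CPM in control MO (0.126, interval 0.0643 to 0.222), and LOC752244 at 61.1 and 476 CPM (0.128, interval 0.0712 to 0.214). Most of them were low in other cells as well, with ratios of 0.183 for LOC763417, 0.113 for LOC584671, 0.0952 for LOC580476 and 0.283 for LOC752244. LOC575151 was an exception, at 0.108 in gut cells and at 0.916 in other cells. LOC585996, among the 15 highest gut ratios of control MO, was at 0.141 in gut cells. In other cells it was near 0 CPM, at 0.634 in gcm MO and 0.605 in control MO. Its ratio there of 1.05 had an interval of 0.0221 to 9.36, too wide to give a direction. LOC585996 had 4 UMIs in gcm MO and 122 in control MO gut cells. Of the 119 control MO gut UMIs of LOC575151, 107 lay in 3 cells, and with 10 or more Endo16 UMIs its ratio was 0.267 with an interval of 0.0312 to 1.04 that includes 1. The bZIP factor gene Nfe2 was at 89.6 CPM in gcm MO and 288 CPM in control MO (0.311, interval 0.192 to 0.480), with 0.351 in other cells. The major vault protein gene mvp was at 52.9 and 116 CPM (0.458, interval 0.237 to 0.813), with 0.588 in other cells.

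**Figure D4:**
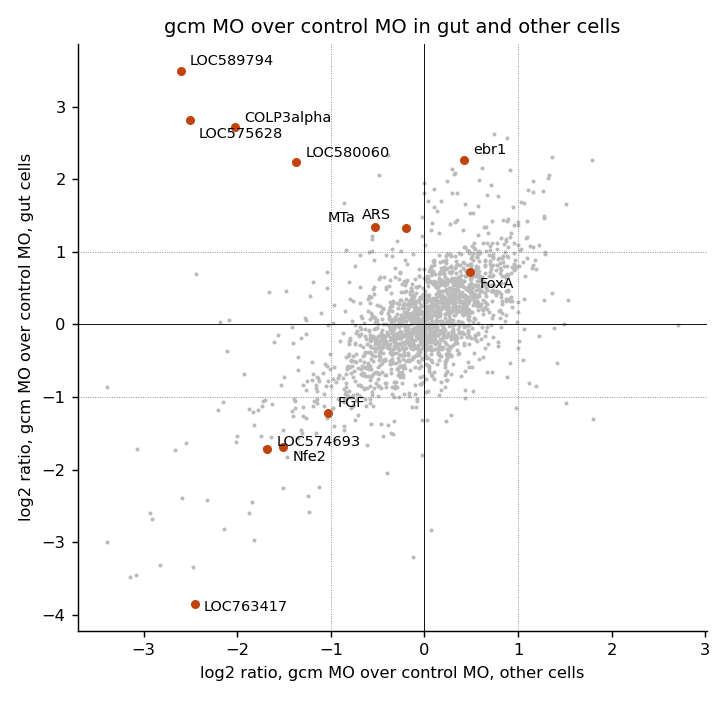
Each point is 1 gene, with its log2 ratio of gcm MO over control MO in other cells (horizontal axis) and in gut cells (vertical axis). Dotted lines mark 2-fold and 0.5-fold. Groups under 3 UMIs were set to 3 for gut cells only, and genes with 0 UMIs in the other cells of either library were left out. LOC589794, LOC575628, COLP3alpha and LOC580060 lie at the upper left, high in gut cells and low in other cells, and LOC763417 lies at the lower left. The points of both axes come from the same libraries, and the other cells differ between the libraries in their share of skeletogenic and pigment cells.

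The uninjected library gives the size of differences between libraries that both have gcm activity. Its 117 gut cells, of 5170 kept, had the 3 regulators at 4-fold or more over other cells, where 2.76% of 10903 genes reached 4-fold and 8.62% were at 0.25-fold or less. Against it, control MO gut cells had 234 of 2070 genes at 2-fold or more (11.3%) and 90 at 0.5-fold or less (4.35%). This comparison and that of gcm MO with control MO share the control MO library, and the uninjected cells also differ in enrichment and lane, so levels are given side by side only. LOC574693 was at 546 CPM in gcm MO, 1794 CPM in control MO and 0 CPM in uninjected gut cells, and LOC574568 at 269, 1460 and 3.40 CPM. In other cells LOC574693 was at 484, 1553 and 2.70 CPM. LOC763417 was at 4.07 CPM in gcm MO, 176 CPM in control MO and 6.79 CPM in uninjected gut cells, and Nfe2 at 89.6, 288 and 96.8 CPM. For LOC763417 and Nfe2 the control MO level thus stood apart from the others. The same held for LOC584671, LOC588827, LOC753986, LOC581034, LOC580476, LOC752244 and LOC100893731 of the lowest gcm MO over control MO ratios. In gcm MO, control MO and uninjected gut cells LOC584671 was at 8.14, 135 and 10.2 CPM, and LOC752244 at 61.1, 476 and 81.5 CPM. Of the same list, LOC585996 was at 16.3, 116 and 56.0 CPM, and LOC575151 was highest in uninjected gut cells, at 477 CPM. FGF was at 85.5 CPM in gcm MO, 199 CPM in control MO and 360 CPM in uninjected gut cells. Hbox7 was at 171, 86.2 and 401 CPM, and lox at 32.6, 14.2 and 126 CPM. Hbox7 and lox were thus lowest in control MO. The heat shock gene hsp110 was higher in both injected libraries, at 432 CPM in gcm MO and 507 CPM in control MO, than in the uninjected one, at 205 CPM. FoxA was at 1673 CPM in gcm MO, 1015 CPM in control MO and 1520 CPM in uninjected gut cells, so that control MO was the lowest of the 3.

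**Figure D5:**
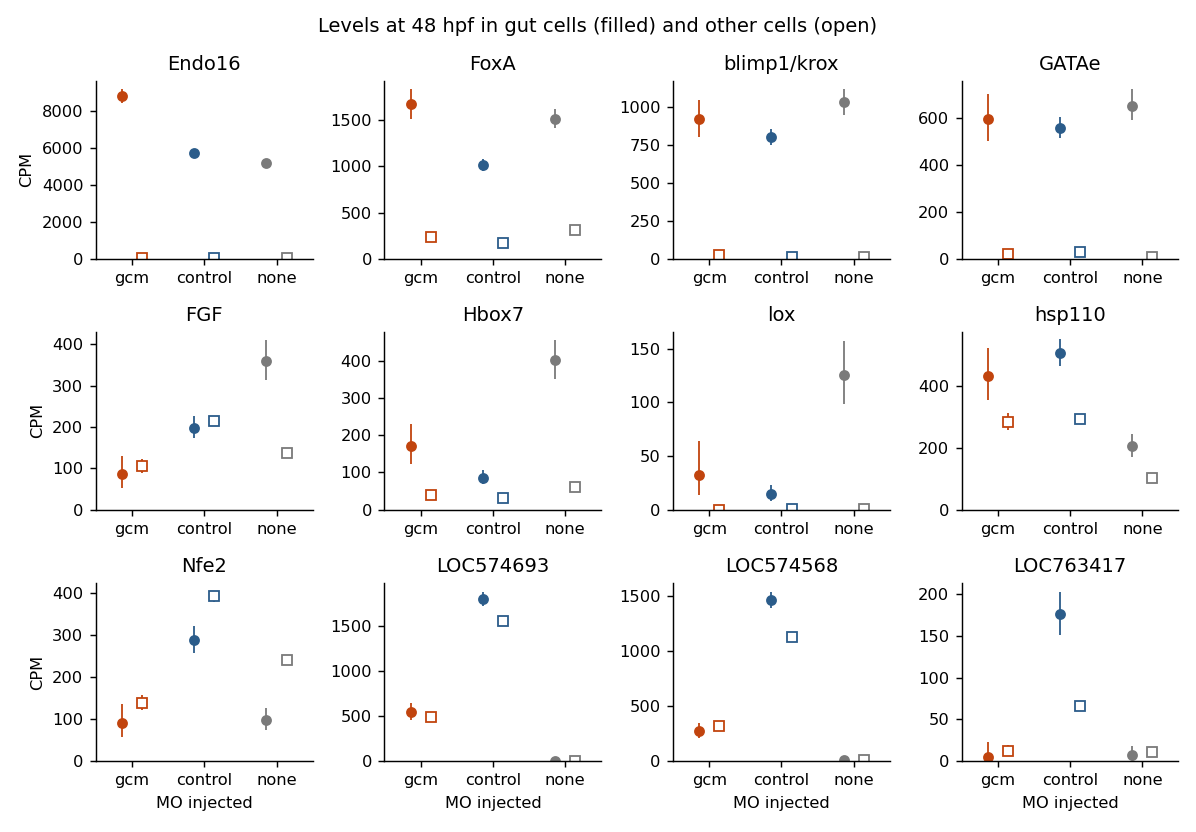
Levels in CPM (vertical axes, linear, each from 0) of 12 genes in gut cells (filled circles) and other cells (open squares) of the gcm MO, control MO and uninjected 48 hpf libraries, with 95% counting intervals. In gut cells of control MO, Nfe2 and LOC763417 lie above both other libraries, at 288 and 176 CPM, and FoxA lies below both, at 1015 CPM.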

How the data were processed

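The data were 10x Genomics single-cell counts (Chromium 3' v3 chemistry) from 1 library per condition. The authors aligned and counted the reads with Cell Ranger against a custom reference built from the Spur_4.2 assembly and deposited raw UMI counts per gene and cell, which are the values used here. The submitters' processing notes also name Seurat 3.1.4, whose output was not used here. The count tables list 32262 features, of which 30897 are LOC identifiers. The gene table paired 20759 of these with an entry and 3 with a symbol. Names for pks1, sult1c2 and fmo5-1 come from the study.

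Cells with 400 to 2500 genes were kept and gut cells were taken by the rule given with the results. Members and gene lists (15 lists, 73 genes) were chosen with earlier results of these data known. UMIs were summed over the cells of a group and scaled to CPM. Gut and other cells were compared over genes with at least 50 UMIs, and libraries over genes with at least 100 UMIs in gut cells. A group under 3 UMIs was set to 3 in counts of genes past a threshold, in the alternatives and in ratios given as bounds. The sorting of the 111 and 104 genes by their ratio with 10 or more Endo16 UMIs used ratios without this floor. The thresholds were 4-fold and 0.25-fold for gut over other cells, and 2-fold and 0.5-fold between libraries. With 1 library per condition no test was run. Intervals are exact Poisson, Clopper-Pearson or conditional binomial intervals at 95%. Thinning drew 1000 UMIs per cell and left out shallower cells. Cells that Scrublet (scanpy 1.11.5) called doublets stayed in. They numbered 9 of 539 kept cells in gcm MO, with 0 among gut cells, and 66 of 3323 in control MO, with 5 among gut cells. In the uninjected library the caller marked 5 of 5170 cells (0.0967%), too few to have worked.

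Named genes were the 15 highest and 8 lowest gut ratios of control MO, the 10 highest and 10 lowest gcm MO over control MO ratios in gut cells, Endo16 and the list members. Further genes with a symbol, the 12 abundant gut genes and those set beside the uninjected library were chosen after their values were seen. Alternatives changed the gene limits, the Endo16 minimum, the limits on other cell types, thinning, doublets, weighting of cells, scaling, the UMI minimum and the comparison cells. Computation used scipy 1.17.1 and numpy 2.4.6 under Python 3.11.15, with tables in pandas 2.3.3 and plots in matplotlib 3.10.9, and the steps were tested on simulated data. The uninjected 72 hpf library was not analysed here.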

Additional observations from a re-analysis of the deposited data

Results flagged for a closer look

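Among genes with at least 100 UMIs in other cells, 4 were at 2-fold or more in gut cells and at 0.5-fold or less in other cells for gcm MO over control MO, a difference that was not tested. The ratio of the gut ratio to the ratio in other cells was 68.6 for LOC589794, 40.0 for LOC575628, 26.7 for COLP3alpha and 12.1 for LOC580060. The other cells differed in their cell types, with 2 skeletogenic and 7 pigment cells in gcm MO and 53 and 205 in control MO. The part of this in the ratios was not tested. In gut cells of gcm MO, 3 cells held 90 of the 113 COLP3alpha UMIs and 2 cells held all 76 LOC589794 UMIs, while LOC580060 was found in 18 cells with at most 18 UMIs in any of them and 48 of its 92 UMIs in 3.

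Cells above the limit of 2500 genes belong to no comparison of the report, yet some carried the gut signal. In gcm MO, 21 of 48 such cells held 3 or more Endo16 UMIs, or 3.27% of all 643 cells, against 7 of 10 in control MO, or 0.206% of 3402. They held 42.5% of all Endo16 UMIs of the gcm MO library and 6.48% of those of the control MO library. In these cells FoxA was at 1755 CPM in gcm MO and 746 CPM in control MO, blimp1/krox at 1528 and 1030 CPM, and ARS at 213 and 851 CPM. Their median depth was 9582 UMIs in gcm MO and 9496 UMIs in control MO. With no upper limit the gut share was 15.0% in gcm MO and 8.37% in control MO.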

How the results depend on the processing

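Of 1398 recomputed ratios of named genes, 1143 stayed within the counting interval, 240 moved beyond it, and 15 that lay past the fold threshold changed to the other side of 1. Of 111 recomputed gene counts and shares, 94 stayed within 1.5 times or within their interval and 17 did not. Genes at 4-fold or more in gut over other cells numbered 113 in gcm MO and became 243 at a minimum of 20 UMIs and 29 at 200, and in control MO 293 genes became 518 and 123. The 515 genes at 0.25-fold or less in gcm MO became 877 with no upper gene limit and 288 at a minimum of 200 UMIs. For gcm MO over control MO in gut cells, the 111 genes at 2-fold or more became 70 with 10 or more Endo16 UMIs (4.7% of 1488), 63 after thinning, 796 at a minimum of 20 UMIs and 42 at 200, and the 104 at 0.5-fold or less became 344 and 55. For control MO over uninjected gut cells, the 234 genes at 2-fold or more became 979 and 105 at those minimums, and the 90 at 0.5-fold or less became 426 and 50, and 171 with no upper gene limit. MTa turned to 0.547 with 5 or more Endo16 UMIs, 0.341 with 10 or more, 0.396 after thinning and 0.650 without the gut cells lacking blimp1/krox, GATAe and FoxA. ARS turned to 0.402 with 10 or more and 0.426 after thinning, EGF2 to 0.733 and egf1 to 0.947 with 10 or more, and ebr1 to at most 0.280 with 10 or more and at most 0.375 after thinning. LOC589794 turned to at most 0.618 with 10 or more and to at most 0.462 without the 3 gcm MO cells richest in COLP3alpha. These bounds set gcm MO to 3 UMIs, where ebr1 had 2 and LOC589794 had 0. COLP1alpha, control MO over uninjected, was 0.103 in all gut cells and turned to 5.23 with 5 or more Endo16 UMIs, 6.0 with 10 or more and 5.28 after thinning. Leaving out the gut cells without regulators and the COLP3alpha-rich cells were alternatives chosen after seeing the data, and the cause of these changes was not tested. With 67 gcm MO gut cells and 245620 UMIs, against 273 cells and 1056070 UMIs in control MO, genes with few UMIs in gcm MO carry wide intervals. No paired analysis was possible because each condition has 1 library.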
